A study of Mus musculus with 4 samples.

Results

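Small nucleolar RNAs and the small RNAs of Cajal bodies were followed across 4 mouse T cell libraries. The members are all rows of the deposited tables whose symbol starts with Snora, Snord or Scarna and a digit. The table of vector-transduced cells held 118 of them among 23258 named genes, which were 73 Snord, 36 Snora and 9 Scarna. The table of regulatory T cells (Treg) held 2 among 10663, Scarna2 and Scarna17. Both of these are in the vector table as well, where they are listed at 0 in both libraries.

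The series holds 2 experiments with 1 library per group. In the vector experiment, naive CD4 T cells from C57BL6 mice (wild type) received a mock vector or one with Sox12, a SoxC transcription factor. In the DSS experiment, spleen Treg were purified by human CD2 from Balb/c Foxp3-hCD2 reporter mice, either untreated or after 7 days on water with 3% dextran sulfate sodium (DSS), which injures the colon. The labels do not say which promoter drove Sox12, what else the vectors carried, how many mice gave each library, or how long the cells were cultured. With 1 library per group no difference was tested, and the values describe these libraries. In bulk RNA, fewer cells of a type and less RNA per cell cannot be told apart.

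Small nucleolar RNAs are short stable RNAs that guide chemical changes of other RNAs in the nucleus. The Snord class, named box C/D, pairs with ribosomal RNA and brings the methyltransferase fibrillarin to it, and the Snora class, named box H/ACA, brings the pseudouridine synthase dyskerin. Scarna RNAs carry the same boxes, gather in Cajal bodies and guide changes of the spliceosomal RNAs. In mammals most are cut out of introns of a host gene, often one for a ribosomal protein or a translation factor, and some lie in non-coding host genes such as Gas5 and the Snhg genes. A few, such as U3, U8, U14, U17 and U22, are needed to cleave the ribosomal RNA precursor and not only to modify it.

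The C/D members on which the results turn are shown first, as the GENCODE vM21 transcripts of the same name on GRCm38, 5′ to 3′. Capitals mark a C box core, TGATGA, within the first 20 bases, and the last D box, CTGA, within the last 20. Snord34, Snord32a, Snord100 and Snord22 have the most C/D fragments or the highest levels, and Snord110 and Snord52 share 1 value in the Sox12 vector library.
Snord34, chr7:45126601-45126670, minus strand: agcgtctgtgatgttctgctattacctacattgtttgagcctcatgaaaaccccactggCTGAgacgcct
Snord32a, chr7:45127382-45127464, minus strand: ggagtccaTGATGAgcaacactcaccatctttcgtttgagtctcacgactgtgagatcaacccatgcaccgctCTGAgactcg
Snord100, chr10:23785750-23785823, minus strand: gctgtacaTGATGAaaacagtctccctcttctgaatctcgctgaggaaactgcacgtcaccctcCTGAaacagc
Snord22, chr19:8725866-8725991, plus strand: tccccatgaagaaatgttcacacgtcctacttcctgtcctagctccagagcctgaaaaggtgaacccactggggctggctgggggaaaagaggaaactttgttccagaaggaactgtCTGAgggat
Snord110, chr2:130275506-130275573, plus strand: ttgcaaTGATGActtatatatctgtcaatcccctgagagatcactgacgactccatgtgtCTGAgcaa
Snord52, chr17:34950952-34951017, minus strand: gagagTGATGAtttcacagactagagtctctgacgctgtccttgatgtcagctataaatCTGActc

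The H/ACA members shown are Snora31 and Snora81, which have the most H/ACA fragments, and Snora52 and Snora5c, which were among the lowest in the Sox12 vector library relative to mock. Capitals mark an H box, ANANNA, in the middle of the RNA and ACA within the last 8 bases.
Snora31, chr14:75847905-75848034, plus strand: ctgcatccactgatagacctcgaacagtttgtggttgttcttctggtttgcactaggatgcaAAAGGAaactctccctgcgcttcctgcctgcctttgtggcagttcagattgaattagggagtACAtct
Snora81, chr16:23110756-23110933, plus strand: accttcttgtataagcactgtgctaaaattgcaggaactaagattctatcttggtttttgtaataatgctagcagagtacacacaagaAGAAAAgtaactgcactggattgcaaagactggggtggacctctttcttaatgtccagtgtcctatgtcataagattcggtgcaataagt
Snora52, chr7:141448803-141448939, plus strand: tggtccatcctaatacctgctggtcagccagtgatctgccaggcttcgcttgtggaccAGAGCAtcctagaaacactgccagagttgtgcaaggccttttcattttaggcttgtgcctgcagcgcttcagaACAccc
Snora5c, chr11:6620319-6620454, minus strand: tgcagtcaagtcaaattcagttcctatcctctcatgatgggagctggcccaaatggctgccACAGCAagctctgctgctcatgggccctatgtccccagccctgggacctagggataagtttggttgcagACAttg

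Of the 118 members, 117 had a GENCODE transcript of the same name. Among 72 Snord, 45 held TGATGA in the first 20 bases and 70 held CTGA in the last 20. Among 36 Snora these letters stood there in 0 and 4. ACA stood within the last 8 bases of 34 of 36 Snora and of 6 of 72 Snord, and ANANNA in the middle of 33 Snora and of 34 Snord. Only the given strand was read, and a match is a match of letters. Snord34 and Snord22, printed above, hold no TGATGA in that window, and Snora81 no ACA at its end.

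FPKM are fragments of a gene scaled by its length and by the fragments of the library. For short RNAs this scaling was steeper than division by length, as given below. As for the libraries, Sox12 was listed at 1.56 FPKM with the mock vector and 829 with the Sox12 vector. In untreated and DSS Treg it was at 0.715 and 1.52. The 4 T cell markers Cd3e, Cd3g, Cd4 and Cd5 were between 81.7 and 473 FPKM in every library. They summed to 1384 and 1388 in untreated and DSS Treg and to 997 and 762 in the mock and Sox12 vector libraries, where all 4 were lower with Sox12 and Cd5, at 189 and 81.7, was past the rule of size (at least 2 times apart). Foxp3, the factor that defines Treg, was at 88.2 and 84.9 in untreated and DSS Treg. In the mock and Sox12 vector libraries Foxp3 was at 20.9 and 127. The 3 Treg markers, Foxp3, Ikzf2 and Il2ra, summed to 232 and 209 in untreated and DSS Treg, where all 3 were lower with DSS. They summed to 662 and 714 in the mock and Sox12 vector libraries. There Foxp3 and Ikzf2 were higher with Sox12, and Il2ra, at 629 and 568, was lower. Only Foxp3 was past the rule of size. In the vector experiment, the 3 markers of CD8 T and NK cells summed to 85.4 and 229 FPKM, 4 B cell markers to 2.01 and 2.57, 6 erythroid markers to 49.1 and 13.8, and 4 myeloid markers to 0.125 and 0.0966, with S100a8 at 0 in both. The part of such cells in the small RNA values was not tested. Across all genes, the median change between the vector libraries was -0.01 on the log2(FPKM + 1) scale.

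In the vector table, 52 of the 118 members were above 0 in at least 1 library and 66 were at 0 or below 0.001 FPKM in both. Those above 0 were 26 of 73 Snord, 23 of 36 Snora and 3 of 9 Scarna. All members together summed to 16958 FPKM with the mock vector and 11118 with the Sox12 vector, which was 3.98% and 2.69% of the summed FPKM of all genes. Snord34 alone, one of 4 box C/D RNAs in introns of the ribosomal protein gene Rpl13a, made up 48.2% of the members' sum in the mock and 51.9% in the Sox12 vector library. It was the highest gene of the whole mock table and the second highest of the Sox12 table.

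**Figure D1:**
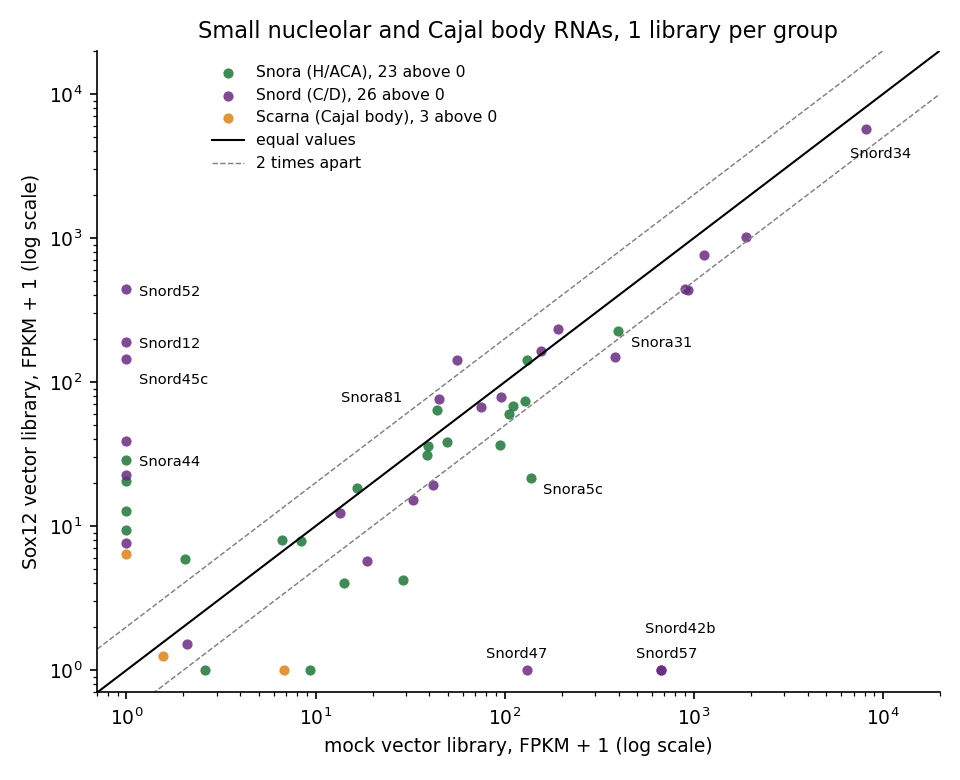
FPKM + 1 of the members above 0 in the mock vector library (x axis) and the Sox12 vector library (y axis), both on log scales and with 1 library per group, coloured by class. Snord34 lies far above the rest at the upper right, and 17 members lie on an axis because they are listed at 0 in 1 of the libraries.

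Of the 49 members with a mean of at least 1 FPKM, 13 (26.5%) were higher in the Sox12 vector library by 2 times or more and 15 (30.6%) lower by as much, with 1 FPKM added to each value before the log2. Over all 10822 genes past that filter the shares were 4.85% higher and 1.91% lower. A member at 0 in 1 library passed the filter only through the library where it was high, so these counts are a description. Of the microRNA entries, another class of short RNA, 12 of 38 (31.6%) lay past the rule in each direction. The called small RNAs were 5 Snora, 7 Snord and 1 Scarna on the higher side and 5, 9 and 1 on the lower side.

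Of the 13 members on the higher side 11 were listed at 0 in the mock vector library, and of the 15 on the lower side 5 were listed at 0 in the Sox12 vector library. The median change of the 49 members was -0.28, with 29 lower in the Sox12 vector library. The 38 microRNA entries past the filter had a median close to it, -0.23, with 23 lower. All 637 microRNA entries together summed to 10937 FPKM with the mock vector and 16814 with the Sox12 vector, the other way from the members' sum. The members' median was -0.50 over the 33 members above 0 in both libraries. There 2 were called higher and 10 lower, so the higher side rests mostly on members at 0 with the mock vector. For another median, a 0 was replaced by the limit set for a count of 0 (3 fragments). Without the 12 members whose other value was at or under that limit, the median was -0.36 over 37 members.

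What an FPKM of a small RNA rests on was read from the values themselves. Among RNAs of 1 length, the FPKM of a library were whole multiples of 1 smallest step, the FPKM of 1 fragment, and this step followed length along a smooth curve. In the mock vector library 31 of the 33 members' values up to 20 fragments, and in the Sox12 vector library 37 of 42, lay within 0.05 of a whole number of fragments. The numbers would all be larger by a common factor if the smallest step stood for more than 1 fragment. The curve was built on these values and those of other short RNAs, over 42 and 41 lengths, so the agreement with it is a description.

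At 65 bases 1 fragment was worth 131 FPKM with the mock vector and 105 with the Sox12 vector. At 118 bases it was worth 5.81 and 5.38, and at 275 bases 0.276 and 0.262, a steeper fall than division by length gives. The same number of fragments therefore reads as a lower FPKM in the Sox12 vector library, the more so the shorter the RNA. The ratio of the steps, Sox12 over mock, was 0.951 at 275 bases, 0.911 at 100 and 0.803 at 65. Genes longer than 1000 bases with low values in both libraries had 0.954 as the most frequent ratio (223 of 1419 genes), which is the ratio that depth alone gives.

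**Figure D2:**
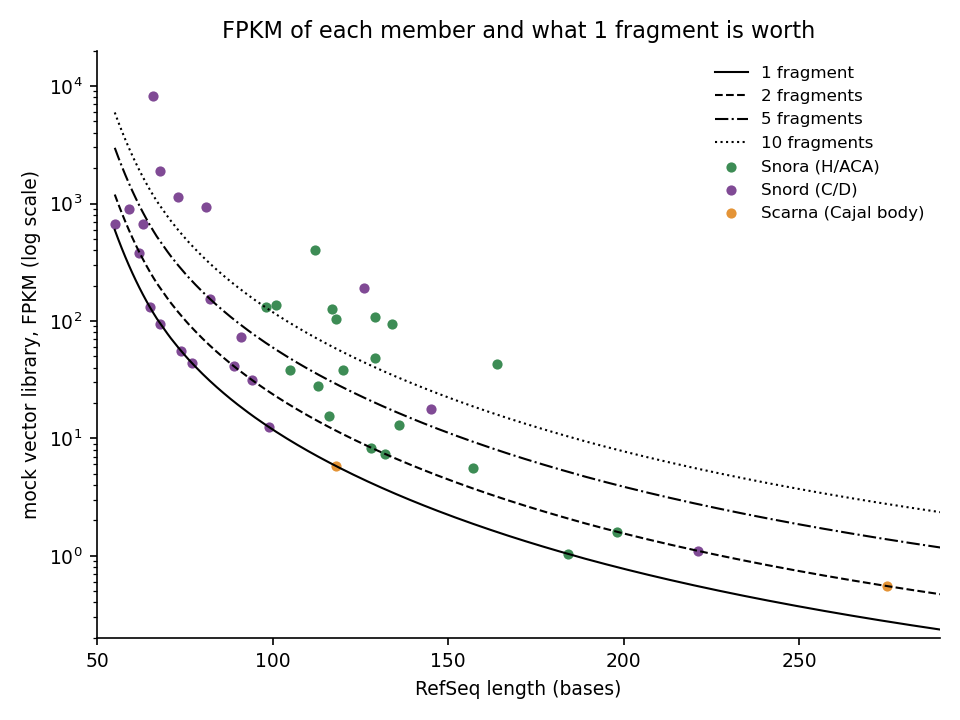
FPKM in the mock vector library (y axis, log scale) of each member above 0.2 FPKM against its RefSeq length in bases (x axis), with curves for 1, 2, 5 and 10 fragments. Several short Snord members with high FPKM lie on the curves for few fragments, while Snord34 lies at 70.

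Snord47, from the non-coding host gene Gas5, was listed at 131 FPKM with the mock vector and 0 with the Sox12 vector, which is 1 fragment against 0. Its mock value equals that of the microRNA entry Mir1956, which has the same RefSeq length of 65 bases. Snord110, from the gene of the core protein Nop56, was at 903 and 440 FPKM, or 3 fragments and 2. Snord52 was listed at 0 and 440 FPKM, or 0 fragments and 2. At 59 bases each, Snord52 and Snord110 thus had the same value to 6 digits in the Sox12 vector library, although the sequences printed above are different. Whether the same reads were assigned to both entries of such a pair was not tested.

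Snord57, a second box C/D RNA of Nop56, was at 669 and 0 FPKM, or 4 fragments and 0. The 95% interval of its ratio of FPKM, Sox12 over mock, reached from 0 to 1.19 and so held equal levels. Snord12 was listed at 0 and 189 FPKM, or 0 fragments and 2. Snord83b, from an intron of Rpl3, was at 0 and 37.9 FPKM, or 0 fragments and 1. Snord47, Snord52, Snord57, Snord12 and Snord83b were among the largest changes of the class in FPKM, and each rests on 1 to 4 fragments in all.

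Among the 13 members on the higher side of the rule, fragments were recovered for 9. Their totals over both libraries lay between 1 and 6, and 8 of the 9 had at most 5. Snora44, in the non-coding host gene Snhg12, was at 0 and 27.9 FPKM, or 0 fragments and 5. For 0 of these 9 did the 95% interval of the ratio leave out 1. Intervals and limits here cover counting error only, and PCR copies of 1 molecule may be counted more than once.

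Among the 15 on the lower side, fragments were recovered for 13, with totals from 1 to 43, of which 9 had at most 5 and 2 at least 20. For 3 of the 13 the interval left out 1, which were Snora5c, Snora52 and Snord32a. As on the higher side, the members were picked by these same values, so the count is a description. Snora5c, in the host gene Tbrg4, was at 136 and 20.7 FPKM, or 12 fragments and 2, a ratio of 0.152 (95% interval 0.0165 to 0.683). Snord15b, from Rps3, was at 17.8 and 4.77 FPKM, or 7 fragments and 2, and Snora16a, from Snhg12, at 13.1 and 3.06, or 4 and 1. For these last 2 the interval held 1.

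Over the 45 members with recovered fragments, the mock vector library held 453 fragments (95% Poisson interval 412 to 497) and the Sox12 vector library 378 (341 to 418). The median member had 5 fragments in both libraries together, 29 had at most 10 and 12 were seen in only 1 library. Scaled by depth alone, the summed fragments gave a ratio of 0.796 (0.693 to 0.915), whereas the summed FPKM of the same 45 gave 0.671. The Snora fragments were 234 and 183, a ratio of 0.746 (0.611 to 0.909), and the Snord fragments 216 and 193, a ratio of 0.852 (0.698 to 1.04). The Scarna fragments were 3 and 2. The interval of the FPKM ratio left out 1 for 4 of the 45 (3 Snora and 1 Snord), all lower in the Sox12 vector library. Intervals were computed for members alone, so no share over all genes stands beside this count. Some of 45 intervals at 95% can leave out 1 by counting error alone. Members share libraries and are not replicates, so these intervals say nothing of the spread between cultures.

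**Figure D3:**
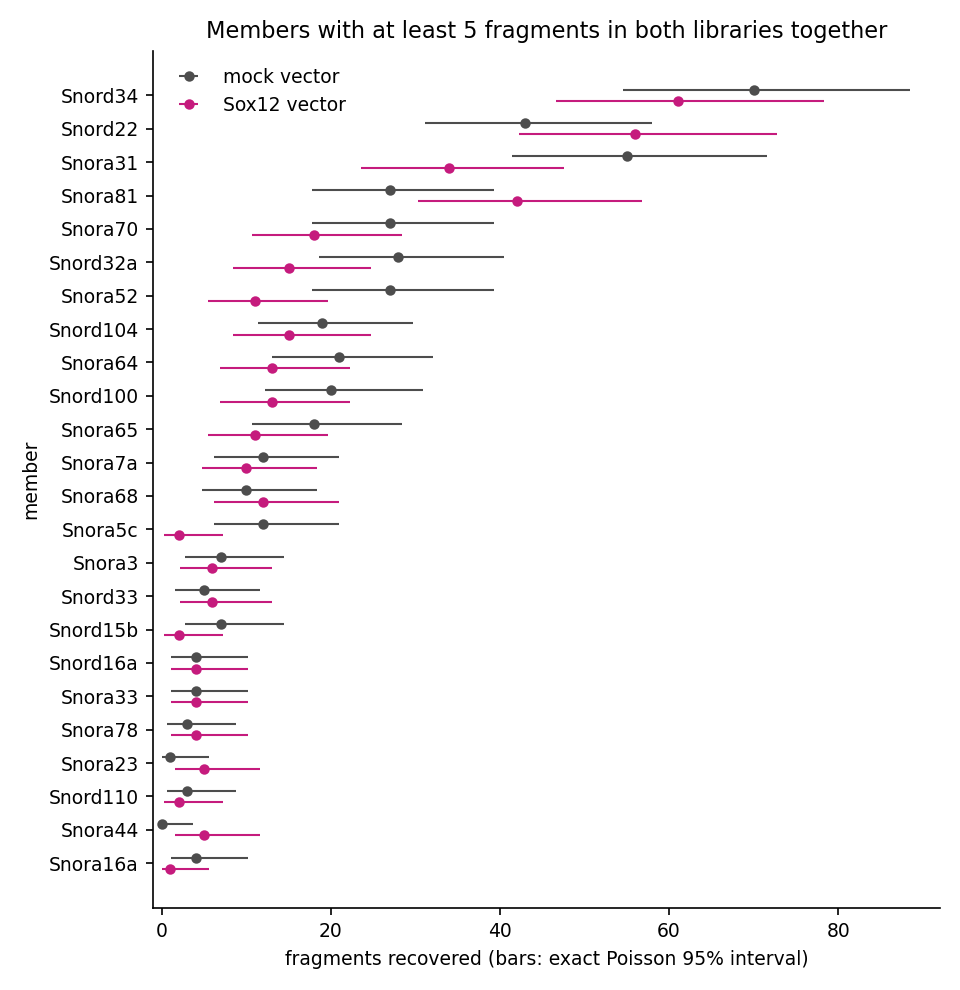
Fragments recovered for each member with at least 5 in both libraries together, in the mock vector library (grey) and the Sox12 vector library (pink), with exact Poisson 95% intervals. The 2 intervals of every member drawn overlap, and 13 members reach 20 fragments in both libraries together.

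The 13 members with at least 20 fragments in both libraries together were 8 Snora and 5 Snord. Of these, 10 had a lower FPKM in the Sox12 vector library and 3 a higher one, beside 5527 of 10822 lower over all genes. The 13 had 377 fragments in the mock and 311 in the Sox12 vector library. Their median change was -0.68 on the log2(FPKM + 1) scale, with 0 called higher and 2 lower, beside 4.85% and 1.91% over all genes. The median was -0.65 where the fragments were scaled by depth alone, and then 1 was called lower. The interval of the FPKM ratio left out 1 for 3 of them, Snora31, Snord32a and Snora52, and it did so for the same 3 with depth alone.

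Snord34 was at 8177 FPKM in the mock and 5768 in the Sox12 vector library, or 70 fragments and 61. Its ratio was 0.705 in FPKM (0.493 to 1.01) and 0.831 by fragments and depth (0.580 to 1.19). The gap between these ratios is that of the value of 1 fragment at 66 bases, and by either the libraries were not apart beyond counting error.

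The other RNAs of Rpl13a are known as a group from work on lipid and oxidative stress. Snord32a was at 927 and 436 FPKM, or 28 fragments and 15, a ratio of 0.470 (0.234 to 0.911). Snord33 was at 155 and 164 FPKM, or 5 fragments and 6, a ratio of 1.06 (0.269 to 4.38). Snord35a was at 41.0 and 18.3 FPKM, or 2 fragments and 1, a ratio of 0.448 (0.00759 to 8.60). The intervals of Snord33 and Snord35a hold the ratio of Snord32a, so no difference among the 3 was detectable at this depth. Rpl13a itself was at 462 and 406 FPKM. The 4 RNAs come from introns of 1 gene, and their FPKM in the mock vector library spanned from 41.0 to 8177.

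Snord22, known as U22 and needed for making the small subunit ribosomal RNA, is the only member of the list of cleavage RNAs above 0. It was at 191 FPKM in the mock and 231 in the Sox12 vector library, or 43 fragments and 56, a ratio of 1.21 (0.800 to 1.85). Its host Snhg1 was at 158 and 148 FPKM. Snord118 (U8), Snord14a, Snord14c and Snord14d (U14) were listed at 0 in both. Snord3, Snora73 and Snord13 RNAs were not analysed here.

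Of the remaining C/D RNAs with at least 20 fragments, Snord100 was at 1891 and 1012 FPKM, or 20 fragments and 13, and Snord104 at 1136 and 763, or 19 and 15. Snord100 lies in the ribosomal protein gene Rps12 together with Snora33, which was at 38.3 and 35.1 FPKM with 4 fragments in each library. The intervals of Snord100, Snord104 and Snora33 all held 1.

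Among the H/ACA RNAs, Snora31, from the translation-associated gene Tpt1, was at 398 FPKM in the mock and 227 in the Sox12 vector library, or 55 fragments and 34. Its ratio was 0.570 (0.360 to 0.890), the upper limit lying below 1. Snora52, from the ribosomal stalk gene Rplp2, was at 93.6 and 35.6 FPKM, or 27 fragments and 11, a ratio of 0.380 (0.170 to 0.793). Its host was at 510 and 418 FPKM.

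Snora81, in the gene of the translation factor Eif4a2, lay the other way, at 42.9 and 62.9 FPKM, or 27 fragments and 42. Its ratio of 1.47 (0.883 to 2.47) held 1. Eif4a2 itself was at 106 and 72.2 FPKM, and Snord2 of the same gene at 94.6 and 77.9, or 1 fragment in each library. Snora68 was at 130 and 142 FPKM, or 10 fragments and 12.

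Snora70, Snora64, Snora65 and Snora7a, all from genes of ribosomal proteins, had a lower FPKM in the Sox12 vector library, with ratios from 0.566 to 0.777. Their fragments were 27 and 18, 21 and 13, 18 and 11, and 12 and 10. The interval of each held 1.

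**Figure D4:**
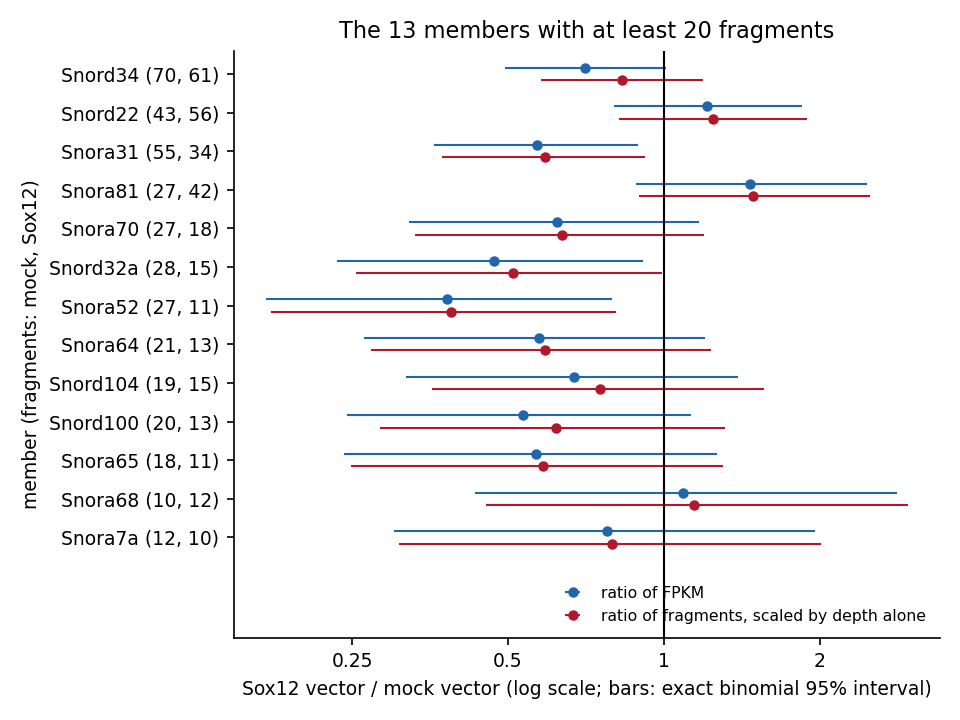
Ratio of the Sox12 vector to the mock vector library (log scale) for the 13 members with at least 20 fragments, as FPKM (blue) and as fragments scaled by depth alone (red), with exact binomial 95% intervals; fragments are given beside each name. Only Snora31, Snord32a and Snora52 have intervals wholly below 1, and 0 have intervals wholly above it.

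For 7 of the 52 members above 0 the value was not a whole number of fragments in both libraries. Snora41 came out at 4 in the mock and 0.50 in the Sox12 vector library, and Snora75 at 2.50 and 3.00. Snora28 came out at 4.13 and Snora62 at 3.19 in the Sox12 vector library, both at 0 in mock. Snord45c and Snord35b came out at 0.86 and 1.06 in the Sox12 vector library, and Snord42b, the shortest member above 0 with 55 bases, at 1.13 in mock. Snord42b was listed at 673 and 0 FPKM, and Snord45c at 0 and 145. These 7 are in the counts of FPKM and in none of the counts of fragments.

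Of the 9 Scarna, 3 were above 0 in the vector table. Scarna3a was at 5.81 and 0 FPKM, or 1 fragment and 0, and Scarna8 at 0 and 5.38, or 0 and 1. These 2 are the Scarna calls, 1 in each direction. Scarna13, in the non-coding host gene Snhg10, was at 0.553 and 0.263 FPKM, or 2 fragments and 1, which is below the filter. With 3 and 2 fragments in all, no difference of this class was detectable at this depth.

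Whether a member was above 0 went with its length. The 52 above 0 had a median RefSeq length of 112.5 bases and the 66 at 0 one of 68. Of members of up to 59 bases 3 of 21 (14.3%) were above 0, of 60 to 79 bases 12 of 36 (33.3%), of 80 to 99 bases 8 of 18 (44.4%), of 100 to 129 bases 16 of 26 (61.5%), and of 130 bases and more 13 of 16 (81.3%). Class moved with length, as the Snora above 0 had a median of 128 bases and the Snord above 0 one of 75.5. The part of class in the shares was not tested.

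A listed 0 therefore left wide limits. For the 54 members at 0 with at least 55 bases, a count of 0 (limit 3 fragments) allowed a median of 168 FPKM in the mock vector library, with a range from 1.14 to 1789, and of 144 in the Sox12 vector library, from 1.08 to 1203. The limits at 55 to 58 bases lie beyond the shortest whole value, at 59 bases. For 11 members shorter than 55 bases and 1 without a length no limit was computed. Among the brain-expressed imprinted C/D RNAs, Snord64, Snord116 and Snord116l1 were at 0 in both libraries.

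The lengths themselves differ between annotations, and these FPKM fall with length more steeply than division by length gives. In the mock vector library 1 fragment was worth 131 FPKM at 65 bases and 43.7 at 77. Of 117 members 13 had the same length in RefSeq and GENCODE and 94 were longer in GENCODE, with a median difference of 12 bases. The RefSeq lengths gave the whole numbers above. The largest difference, 353 bases, was that of Scarna2, which guides the methylation of the spliceosomal RNA U2. Its last 100 bases in GENCODE, with the RefSeq entry in capitals, show that this entry covers only the 3′ end. The whole transcript lies at chr3:108554338-108554751.
Scarna2, minus strand: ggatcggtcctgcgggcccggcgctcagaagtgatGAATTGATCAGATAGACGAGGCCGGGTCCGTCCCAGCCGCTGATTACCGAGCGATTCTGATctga

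Host genes were compared side by side with their RNAs. Of the members, 107 lay on the same strand within exactly 1 gene of the vector table. The hosts of the 47 of these above 0 had a median of 175 FPKM in the mock vector library (1.67 to 1503), and those of the 60 at 0 one of 50.8 (0 to 1381). A host counted once for each of its members. The same 2 groups of members had median lengths of 112 and 68 bases, and the part of length in the host levels was not tested. Member and host had a change of the same sign for 27 of the 45 members past the filter, which have 37 hosts. Over these 45, Spearman's rho of the changes was 0.01 and Pearson's r 0.09, as a description across RNAs that share libraries and in part hosts. The median change of the hosts was -0.29 and that of the members -0.28. Of the 12 members with at least 20 fragments and a host in the table, 9 had the sign of their host. All 11 hosts had a change below 0, from -0.55 to -0.09, beside 5527 of 10822 over all genes past the filter. The match of signs is therefore only the number of members below 0. Spearman's rho over these 12 was -0.18 and Pearson's r -0.23.

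The non-coding host genes were a list of their own. Of 13 listed, 12 passed the filter in the vector experiment, of which 10 were lower and 2 higher in the Sox12 vector library, with a median of -0.27. Over all genes 5527 of 10822 were lower, 1.91% were called lower and the median was -0.01. Snhg9, with Snora78 inside it, was at 3.18 and 0 FPKM and was the only one past the rule of size. Snora78 itself was at 5.62 and 7.05 FPKM, or 3 fragments and 4. Snhg12 was at 28.4 and 19.0 FPKM and Gas5 at 65.5 and 50.3, whereas Snhg5 was at 44.1 and 61.8. In the DSS experiment 12 passed, 9 higher and 3 lower in DSS Treg, with a median of 0.04 beside 0.05 for all genes.

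The proteins that hold these RNAs were looked at next. The 8 core proteins are Fbl (fibrillarin), Nop56, Nop58 and Nhp2l1 for box C/D and Dkc1 (dyskerin), Nhp2, Nop10 and Gar1 for H/ACA. Their summed FPKM was 827 in each vector library and 326 and 324 in untreated and DSS Treg, and 0 of 8 passed the rule of size in either experiment. Over all genes only 4.85% and 1.91% passed it upwards and downwards in the vector experiment and 0.19% and 0.0759% in the DSS experiment, so a count of 0 in this list and in the next 2 is no result about them. Fbl was at 86.9 and 80.3 FPKM and Dkc1 at 56.1 and 59.5 in the mock and Sox12 vector libraries. The most abundant, Nop56 and Nop58, were at 176 and 181, and at 136 and 134.

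Of 13 assembly and Cajal body proteins measured, 0 passed the rule of size in either experiment, with medians of -0.02 in the vector experiment and 0.02 in the DSS experiment, beside -0.01 and 0.05 for all genes. The furthest from 0 in the vector experiment was Naf1, which builds H/ACA particles together with dyskerin, at 14.1 and 8.42 FPKM. Shq1, the chaperone of dyskerin, was at 6.07 and 5.42. Nolc1 and Ruvbl2, the 2 with the highest means, were at 75.7 and 83.8 and at 79.3 and 75.4 FPKM. Coil, the marker protein of Cajal bodies, was at 6.33 and 6.59.

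Of 26 genes for transcribing and processing ribosomal RNA, 14 were higher and 12 lower in each experiment and 0 passed the rule of size, with medians of 0.00 in the vector and 0.01 in the DSS experiment. Over all genes past the filter 5295 of 10822 were higher in the Sox12 vector library and 6965 of 10545 in DSS Treg. Npm1 and Ncl, the most abundant, were at 597 and 567 and at 230 and 232 FPKM in the mock and Sox12 vector libraries. Polr1c, a subunit of RNA polymerase I, was the lowest in change, at 37.4 and 30.1.

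**Figure D5:**
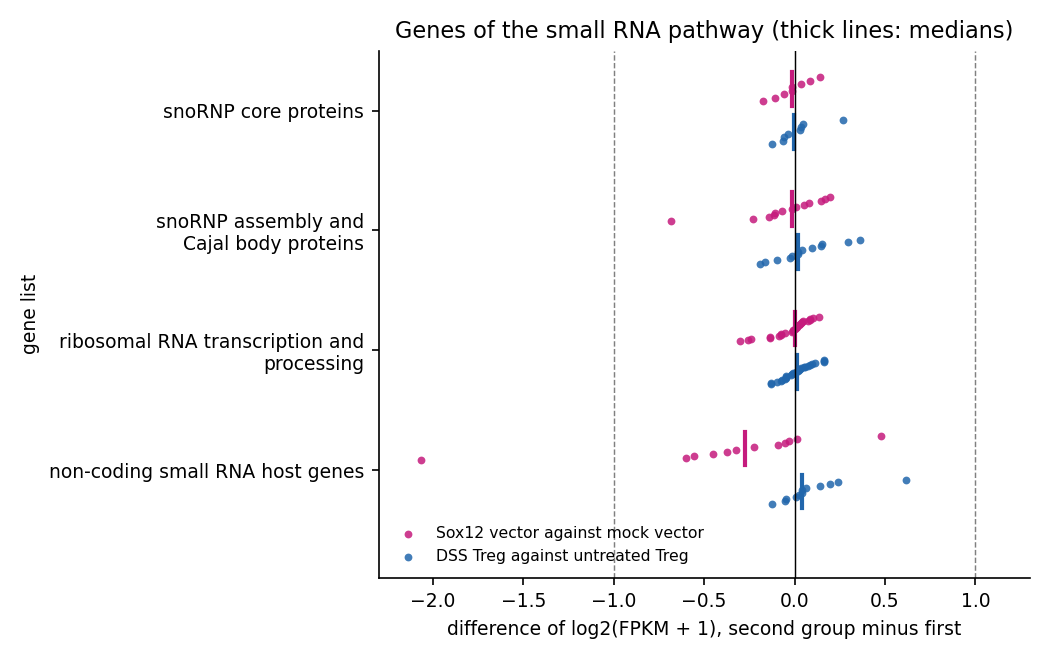
Difference of log2(FPKM + 1) of each gene past the filter in the core protein, assembly, ribosomal RNA and non-coding host lists (x axis, dashed lines at the rule of size), for the vector experiment (pink) and the DSS experiment (blue), with thick lines at the medians. Points gather around 0 except in the non-coding host list of the vector experiment, whose median is -0.27 and whose point furthest left is Snhg9.

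In the DSS table the class comes down to Scarna2 and Scarna17. That table lists only genes with more than 1 FPKM in at least 1 library. It holds 0 Snora, 0 Snord and 0 microRNA entries, beside 36, 73 and 637 in the vector table. Why they are absent was not tested, and their absence gives no level for them in Treg. Scarna2 was at 1527 FPKM in untreated and 864 in DSS Treg, which made it the seventh and the 29th highest gene of these libraries. Scarna17, which also guides changes of spliceosomal RNA, was at 267 and 504 FPKM. The authors' deposited table gives fold changes of 0.566 and 1.89. One was thus lower and the other higher in DSS Treg, and on the log2(FPKM + 1) scale the changes were -0.82 and 0.91.

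Neither passed the rule of size, so that 0 of 2 members were called in either direction, beside 0.19% higher and 0.0759% lower over all 10545 genes past the filter. Fragments were not recovered in this table. The ratio of Scarna2 to Scarna17 was 5.71 in untreated and 1.71 in DSS Treg. Their RefSeq lengths are 61 and 62 bases. Divided by the ratio of the steps at these lengths in the mock or the Sox12 vector library, it became 4.97 or 5.04 in untreated and 1.49 or 1.51 in DSS Treg. These lie near the ratios of small whole numbers, 5 to 1 and 3 to 2, but the numbers of fragments themselves are not known, nor is the step of these libraries.

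Beside these values, all 6 erythroid markers were higher in DSS Treg, with a sum of 399 FPKM in untreated and 614 in DSS Treg, and Hba-a1 at 250 and 388. The 2 listed B cell markers summed to 8.67 and 9.15, the 2 listed CD8 T and NK cell markers to 24.7 and 21.4, and the 4 myeloid markers to 25.6 and 29.1. Their part in the Scarna values was not tested. The longer RNA Rmrp, which forms an RNase that cuts the ribosomal RNA precursor, was at 11.2 and 8.95 FPKM in untreated and DSS Treg and at 10.5 and 7.63 in the mock and Sox12 vector libraries.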

How the data were processed

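Per the labels' protocols, total RNA of 4 samples, 1 per group, went into strand-specific libraries. Cufflinks and mm9 stand in the submitters' processing notes; aligner, annotation and use of strand are not given in the sources read. The authors deposited FPKM for the DSS experiment, with the ratio of both values as fold change, and log2(FPKM + 1) for the vector experiment, with the difference as log2 fold change; recomputing these gave the deposited values. The log2 values were turned back to FPKM. Rows with a date or a bare number in place of a name were dropped (16 of the DSS experiment, 26 of the vector experiment).

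A change is the difference of log2(FPKM + 1), with a pseudocount of 1, which understates the change of low genes. Genes whose mean was 1 FPKM or more passed the filter, and at least 2 times higher or lower means a change of at least 1 in size. With 1 library per group there is no test and no p-value. The 2 tables were made separately and are never compared for change.

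The FPKM of 1 fragment was fitted against RefSeq length (GRCm38.p6) by a search between 85 and 140 bases, followed by local quadratic fits over 9 neighbouring lengths. On simulated data it gave back nearly all fragment numbers for curves about as steep as the fitted ones, but most were missed for 1 simulated curve steeper than the search covers. A number of fragments was taken as recovered where both values of a member lay within 0.05, or 0.2% of the number, of a whole number. Intervals are exact Poisson intervals for fragments and Clopper-Pearson intervals for ratios, at 95%. Hosts, names and sequences come from GENCODE vM21 on GRCm38, another build than that of the tables, and 117 members matched. A host is a gene on the same strand whose body contains the RNA.

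Members named are every Scarna past the filter, the 8 highest by mean, the 8 with the largest change in each direction with a mean of at least 5 FPKM, and the cleavage RNAs; of each related list, the genes past the rule of size or else the 2 highest. Further members were named after their values were seen, for their fragments, hosts or equal values. So were Polr1c, Naf1, Shq1, Coil, Fbl, Dkc1, Rmrp, Rpph1 and 3 non-coding host genes. Members and lists were chosen with earlier results of these data known. Alternatives were other pseudocounts, filters and scalings, and, added after seeing the data, restriction to members with at least 20 fragments. Python 3.11.15, numpy 2.4.6, pandas 2.3.3 and scipy 1.17.1 were used.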

Additional observations from a re-analysis of the deposited data

How the results depend on the processing

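The counts of 13 higher and 15 lower members and the median change of -0.28 in the vector experiment kept within 1.5 times, or within 0.1, under pseudocounts of 0.1 and 5, a filter at 5 FPKM and 3 other scalings. Without a filter the median was 0, since members at 0 in both libraries then count. With members of at least 20 fragments alone, chosen after seeing the data, the counts were 0 and 2 and the median -0.68, and with their fragments scaled by depth alone 0 and 1 and -0.65; fewer members enter there by construction. In the DSS experiment the counts stayed 0 and 0. Among the named members Snord110 came to -0.98 with summed FPKM made equal, just short of the rule of size. The other scalings moved all genes by -0.05 to 0.05 on the log2 scale. No paired analysis was possible because each group has 1 library, and no replicate could be left out. Depth limits most members, with a median of 5 fragments in both libraries together.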
